A study of Mus musculus with 7 samples.

Results

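The miR-200 family of the mouse was read here in small RNA libraries of hepatocytes, through 9 mature miRNAs of 1966 listed in the deposited counts. Membership was set by name and locus. The miR-200b/miR-200a/miR-429 cluster on chromosome 4 contributes 5 members and the miR-200c/miR-141 cluster on chromosome 6 contributes 4. The family was picked with the difference between the genotypes already known, so values of ALAS12-KO against WT are given as a description and without a test. The study asked how ALAS, the synthase that opens the heme pathway, bears on small RNAs. The libraries come from 2 genotypes, ALAS12-KO (n = 4) and WT (n = 3), and miRNA counts do not check the loss of either Alas gene. All 7 are of liver, of cell type hepatocyte and of treatment TMX, an agent the labels do not spell out and that both genotypes share. The alleles, any Cre driver and the age of the mice are not stated in the labels. The cells were the pellet of collagenase-digested liver after low-speed centrifugation, a preparation enriched for hepatocytes in which other liver cells can remain. Nothing states that replicates are separate animals, so the spread between libraries may be partly technical.

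The miR-200 family is the epithelial miRNA family. It represses the transcription factors Zeb1 and Zeb2, which switch off E-cadherin, and those factors repress the miR-200 genes in turn, a loop that stabilises the epithelial or the mesenchymal state. In liver the family is known mainly from the bile duct epithelium and is low in hepatocytes. A miRNA hairpin is cut into a 5p and a 3p arm, and the arm that stays bound in the silencing complex accumulates. Bases 2 to 8 of that arm, the seed, pair with target transcripts.

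The 3p arms carry the family's reads, and they are printed here from RefSeq (GRCm38.p6), 5′ to 3′, with the seed in capitals, because a single base of the seed divides the family across both loci.
mmu-miR-200b-3p: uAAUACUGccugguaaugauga
mmu-miR-429-3p: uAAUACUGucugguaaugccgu
mmu-miR-200c-3p: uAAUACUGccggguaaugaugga
mmu-miR-200a-3p: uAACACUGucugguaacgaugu
mmu-miR-141-3p: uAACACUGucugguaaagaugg

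Counted from 1 at the 5′ end, miR-200b-3p and miR-200a-3p differ by U4C in the seed, together with C9U, U17C and A22U. The same seed change, U4C, separates miR-200c-3p from miR-141-3p. Each locus therefore encodes both seeds. AAUACUG, which pairs with the site CAGUAUU, belongs to miR-200b-3p and miR-429-3p of chromosome 4 and to miR-200c-3p of chromosome 6. AACACUG, which pairs with CAGUGUU, belongs to miR-200a-3p of chromosome 4 and miR-141-3p of chromosome 6. Of the mature mouse miRNAs in RefSeq, 3 have the first seed and 2 have the second, all of them in the family. Across the loci the closest pairs are miR-200a-3p with miR-141-3p (C17A and U22G) and miR-200b-3p with miR-200c-3p (U11G and A22G). How the authors assigned reads matching more than 1 miRNA is not given, so those pairs could exchange some reads. The entry for non-unique alignments is 0 in all 7 libraries, and the entry for ambiguous reads holds 156 to 318 reads per library over all miRNAs.

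The chromosome 4 hairpins lie on the minus strand within 1846 bases (GRCm38, chr4:156053905-156055750), in introns of Ttll10 and under the noncoding gene Gm13648. Mir429 overlaps an exon of Gm13648. Mir200b and Mir200a are 695 bases apart, and Mir200a and Mir429 are 908 bases apart. The chromosome 6 hairpins lie on the minus strand within 477 bases (chr6:124717914-124718390), 336 bases apart, in an intron of the noncoding gene Gm15884. They sit between Phb2 and Ptpn6, outside both, and Mir141 also overlaps the unverified transcript Gm29008. The hairpins of the most abundant member of each cluster are printed with the annotated arms in capitals, the 5p arm first, to show the arm that was nearly absent beside the arm that was counted.
Mir200a: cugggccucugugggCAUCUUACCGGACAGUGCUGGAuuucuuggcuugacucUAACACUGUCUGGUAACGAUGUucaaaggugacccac
Mir141: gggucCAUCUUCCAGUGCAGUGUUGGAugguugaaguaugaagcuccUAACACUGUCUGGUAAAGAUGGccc

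Total miRNA reads per library ran from 7719180 to 21962191, so 1 CPM, a count scaled to a library of 1000000 miRNA reads, stands for 7.72 to 22.0 reads. miR-122-5p, the defining miRNA of hepatocytes, took 53.5% to 61.5% of miRNA reads. Summed markers of mesenchymal, endothelial, leukocyte and red cells were each lowest in ALAS12-KO replicate 1, so results are also given without this library. By the measure for single libraries given near the end, none of these sums set it apart from the other ALAS12-KO libraries. The 9 family members held 12565 reads over all libraries. Their sum was 54.6, 87.8, 107 and 76.7 CPM in ALAS12-KO replicates 1 to 4, against 140, 171 and 243 CPM in WT replicates 1 to 3. The groups did not overlap. In bulk libraries, fewer cells of a type and less of a miRNA per cell cannot be told apart. The lists used here hold no bile duct marker outside the family, so a bile duct source of these reads was not checked.

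mmu-miR-200a-3p, which represses Zeb1 and Zeb2 and also Keap1, was the most abundant member in every library. It had 23.6, 45.1, 47.4 and 33.6 CPM in ALAS12-KO replicates 1 to 4, against 75.9, 95.0 and 143 CPM in WT replicates 1 to 3. Every ALAS12-KO library lay below every WT library, the highest ALAS12-KO value being 47.4 CPM and the lowest WT value 75.9 CPM. The means were 37.4 ± 11.0 CPM in ALAS12-KO (SD, n = 4) and 105 ± 34.4 CPM in WT (SD, n = 3). Among all miRNAs of a library it ranked 132 to 155 in ALAS12-KO, against 97 to 113 in WT.

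mmu-miR-200b-3p, which shares its seed with miR-429-3p, had 6.22, 12.4, 17.0 and 9.71 CPM in ALAS12-KO replicates 1 to 4, against 23.0, 29.4 and 40.8 CPM in WT replicates 1 to 3. The groups did not overlap. mmu-miR-429-3p, from the hairpin farthest downstream in the cluster, had 3.34, 7.33, 8.83 and 6.90 CPM in ALAS12-KO, against 14.7, 17.0 and 21.6 CPM in WT. The groups did not overlap for this member either. ALAS12-KO replicate 1 was the lowest library and WT replicate 3 the highest for all 3 of these 3p arms.

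The chromosome 6 members gave another picture. mmu-miR-141-3p, which carries the seed of miR-200a-3p, had 17.6, 19.2, 24.4 and 20.3 CPM in ALAS12-KO replicates 1 to 4, against 20.7, 23.7 and 29.8 CPM in WT replicates 1 to 3. ALAS12-KO replicate 3 lay above WT replicates 1 and 2, so the groups overlapped. mmu-miR-200c-3p, which carries the seed of miR-200b-3p, had 3.64, 3.27, 7.61 and 5.37 CPM in ALAS12-KO, against 4.93, 5.01 and 7.64 CPM in WT. The groups overlapped here too, and the counts behind them were small, from 33 to 130 reads per library.

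**Figure D1:**
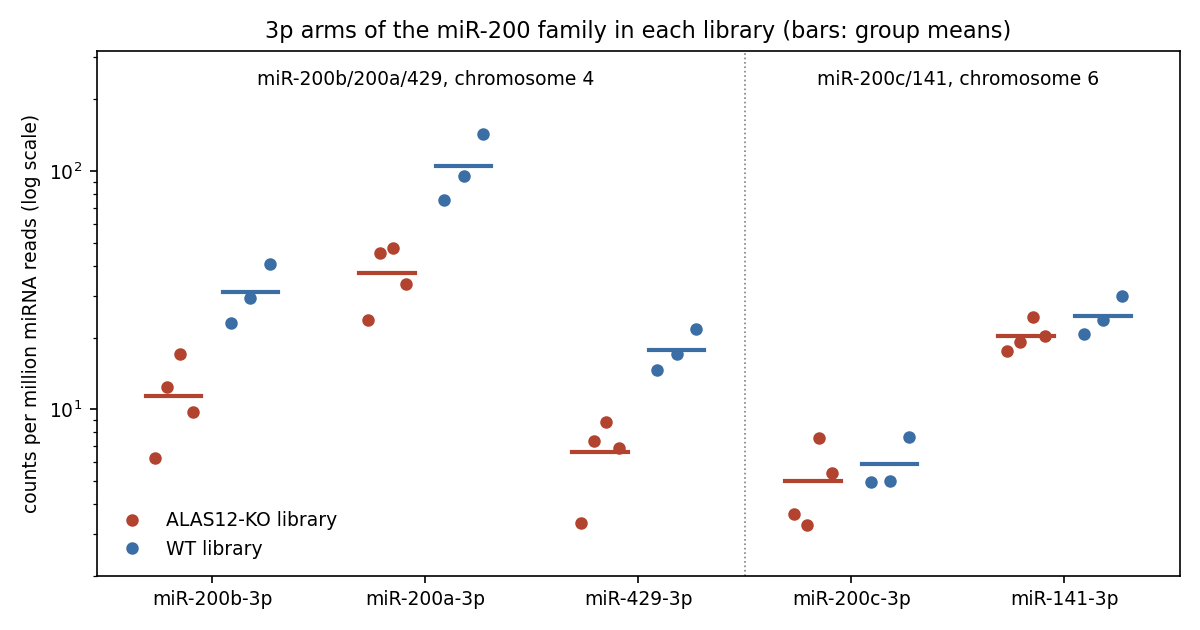
CPM (log axis) of the 5 3p arms in each library, ALAS12-KO (n = 4) left of WT (n = 3), with a bar at each group mean. For miR-200b-3p, miR-200a-3p and miR-429-3p every ALAS12-KO point lies below every WT point, while the points of miR-200c-3p and miR-141-3p overlap.

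The fit across all miRNAs put figures on these differences. It used the quasi-likelihood model of edgeR with TMM factors, which scale libraries by the bulk of their miRNAs, and it kept 450 miRNAs after a filter on low counts. In it the log2 fold change, ALAS12-KO over WT, was −1.31 ± 0.27 (SE) for miR-200a-3p, −1.30 ± 0.29 for miR-200b-3p and −1.27 ± 0.27 for miR-429-3p. These stood 5th, 7th and 8th from the lowest of the 450. For miR-141-3p it was −0.10 ± 0.18, and for miR-200c-3p −0.07 ± 0.28. The median over all 450 miRNAs was 0.06, and −0.12 when libraries were scaled by their totals alone. Over 4 scalings the 3 lower members ran from −1.48 to −1.27. Without ALAS12-KO replicate 1 they had −1.22 for miR-200a-3p, −1.17 for miR-200b-3p and −1.13 for miR-429-3p. WT replicate 3, their highest library, also had the fewest miRNA reads, 7719180. Without it the values were −1.09 for miR-200a-3p, −1.12 for miR-200b-3p and −1.17 for miR-429-3p.

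Of the 9 members 6 passed the filter, the 5 3p arms and miR-141-5p. At an edgeR adjusted p under 0.05, 0 of the 6 were called, where 0.0% of all tested miRNAs were. At an unadjusted p under 0.05 there were 3 of the 6, against 18.7% of all tested miRNAs. limma-voom called 0 of the 6, and 0 of all 450 tested miRNAs. DESeq2 called 3 of the 6, all lower, where it called 1.56% of all tested miRNAs lower. Every ALAS12-KO library lay below every WT library for 3 of the 6, as it did for 15.3% of all tested miRNAs on library totals and 9.33% on the TMM scale. Nothing is read from these counts, since the family was picked with this contrast known.

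Summed by cluster, miR-200b/miR-200a/miR-429 had 33.2, 65.1, 73.4 and 50.3 CPM in ALAS12-KO replicates 1 to 4, against 114, 142 and 205 CPM in WT replicates 1 to 3. The means were 55.5 ± 17.7 CPM in ALAS12-KO (SD, n = 4) and 154 ± 46.9 CPM in WT (SD, n = 3), a ratio of 0.361. Without ALAS12-KO replicate 1 the ALAS12-KO mean was 62.9 ± 11.7 CPM (SD, n = 3). The miR-200c/miR-141 sum was 21.4, 22.7, 33.1 and 26.4 CPM in ALAS12-KO, against 26.5, 29.1 and 37.8 CPM in WT. Its means were 25.9 ± 5.26 CPM in ALAS12-KO (SD, n = 4) and 31.1 ± 5.94 CPM in WT (SD, n = 3), a ratio of 0.832 with overlapping groups.

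Within a library the clusters can be set against each other without any scaling. The ratio of miR-200b/miR-200a/miR-429 reads to miR-200c/miR-141 reads was 1.55, 2.87, 2.22 and 1.90 in ALAS12-KO replicates 1 to 4, against 4.31, 4.87 and 5.43 in WT replicates 1 to 3. The groups did not overlap, with or without ALAS12-KO replicate 1, and the log2 ratio averaged 1.06 ± 0.37 in ALAS12-KO (SD, n = 4) and 2.28 ± 0.17 in WT (SD, n = 3). The chromosome 4 cluster supplied 60.8% to 74.2% of family reads in ALAS12-KO and 81.2% to 84.5% in WT. It was the larger of the clusters in 7 of 7 libraries, by 2.99-fold in the geometric mean, with a two-sided exact sign-flip permutation p of 0.0156, the smallest that 7 libraries allow. This test compares the clusters and not the genotypes. It pools both genotypes, whose ratios did not overlap, and it was chosen with earlier results of these data known, so nothing further is read from its p. Reads of different miRNAs are not calibrated against each other, so the fold is of reads. When the median of the 3p members replaced the sum, the log2 ratio was 0.65 with an exact permutation p of 0.0938.

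**Figure D2:**
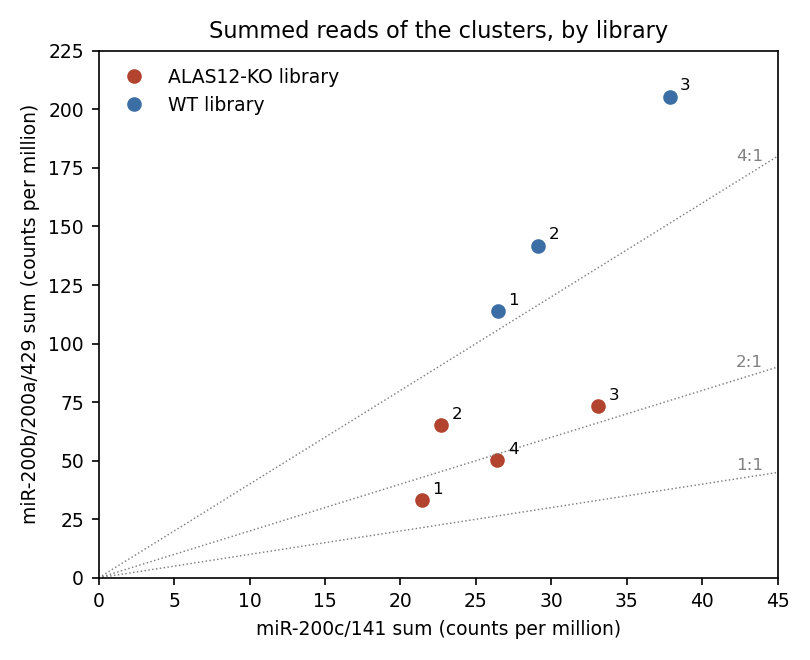
Summed CPM of miR-200b/miR-200a/miR-429 against miR-200c/miR-141, one point per library numbered by replicate, with dotted lines at ratios of 1, 2 and 4. The WT libraries lie above the line of 4, at 4.31 to 5.43, and the ALAS12-KO libraries lie at 1.55 to 2.87, while both groups span similar miR-200c/miR-141 levels.

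Taken pair by pair, the 5 3p arms form 10 ratios, and the ratios split by locus and not by seed. For the 4 pairs that share a cluster, the mean log2 ratio in ALAS12-KO minus that in WT ran from −0.02 to 0.01, and the groups overlapped in all 4. For the 6 pairs that span the clusters it ran from −1.24 to −1.20, and the groups overlapped in 0. miR-200a-3p over miR-141-3p, which share a seed, had a log2 ratio of 0.83 ± 0.34 in ALAS12-KO (SD, n = 4) and 2.05 ± 0.19 in WT (SD, n = 3). miR-200b-3p over miR-200a-3p, which share a cluster and differ in seed, had −1.76 ± 0.20 in ALAS12-KO and −1.74 ± 0.06 in WT. The pairs share members, so the 10 ratios are not independent.

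**Figure D3:**
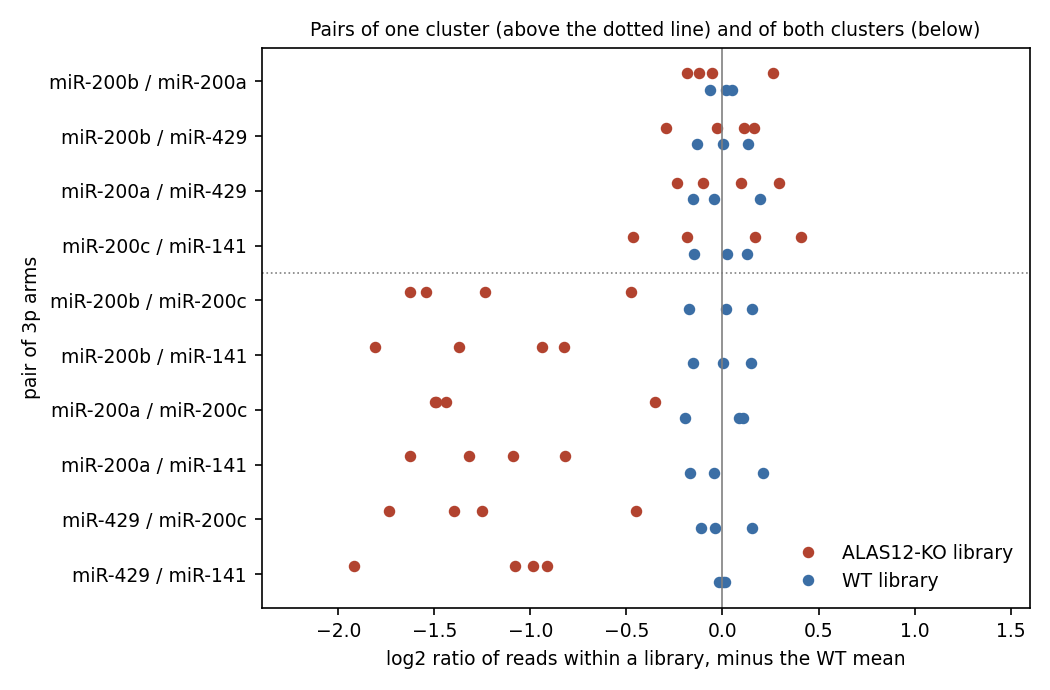
Log2 ratio of reads of each pair of 3p arms within a library, minus the WT mean of that pair, with ALAS12-KO points above WT points in each row. Pairs from a shared cluster lie around 0 in both genotypes, and pairs spanning the clusters lie to the left in every ALAS12-KO library.

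The shares of the members within each cluster overlapped between the genotypes. miR-200a-3p made up 68.0% ± 2.88 of the chromosome 4 reads in ALAS12-KO (SD, n = 4) and 67.7% ± 1.54 in WT (SD, n = 3). miR-200b-3p made up 20.1% ± 2.09 in ALAS12-KO and 20.3% ± 0.445 in WT, and miR-429-3p 11.8% ± 1.53 in ALAS12-KO and 11.8% ± 1.18 in WT. On chromosome 6, miR-141-3p made up 79.4% ± 5.02 of the reads in ALAS12-KO and 79.4% ± 1.67 in WT. miR-200c-3p made up 18.7% ± 3.74 in ALAS12-KO and 18.7% ± 1.51 in WT. Reads of different miRNAs are not calibrated against each other in these libraries, so these shares are shares of reads.

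By seed, the summed levels did not overlap between the genotypes, while the balance of the seeds did. miRNAs with AACACUG summed to 41.2, 64.3, 71.8 and 54.0 CPM in ALAS12-KO replicates 1 to 4, against 96.6, 119 and 173 CPM in WT replicates 1 to 3. Those with AAUACUG summed to 13.2, 23.0, 33.5 and 22.0 CPM in ALAS12-KO, against 42.6, 51.5 and 70.1 CPM in WT. The AACACUG seed took 72.2% ± 3.26 of the 3p reads in ALAS12-KO (SD, n = 4) and 70.1% ± 0.910 in WT (SD, n = 3). The share of each locus did not overlap. miR-200a-3p supplied 57.3% to 70.1% of AACACUG reads in ALAS12-KO and 78.6% to 82.7% in WT, with miR-141-3p supplying the rest.

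Over all 7 libraries the order of mean levels was miR-200a-3p, miR-141-3p, miR-200b-3p, miR-429-3p, miR-200c-3p and miR-141-5p, and the other 5p arms followed. Of the 5 neighbouring pairs without a 0, 4 had an adjusted p under 0.05 in a two-sided exact sign-flip permutation test. The Benjamini-Hochberg p-values over the 5 pairs were 0.0260 for 3 pairs and 0.0391 for miR-429-3p over miR-200c-3p. The pairs were neighbours in the order of these same libraries, so the test is no independent check of that order. It also pools both genotypes, so the spread it uses is not of replicates alone. miR-200a-3p exceeded miR-141-3p by 2.56-fold and miR-200b-3p exceeded miR-429-3p by 1.72-fold, each in 7 of 7 libraries. The mature forms are 22 or 23 bases long, so levels per miRNA and per base are nearly on the same scale. Reads of different miRNAs are not calibrated against each other, so the order and its folds are of reads. miR-141-3p and miR-200b-3p did not separate (adjusted exact permutation p = 0.203). miR-141-3p was the higher of that pair in the 4 ALAS12-KO libraries, and miR-200b-3p was the higher in the 3 WT libraries. miR-429-3p exceeded miR-200c-3p in 6 of 7 libraries and lay below it in ALAS12-KO replicate 1, at 3.34 against 3.64 CPM. The log2 ratio of that pair was 0.40 ± 0.55 in ALAS12-KO (SD, n = 4) and 1.61 ± 0.14 in WT (SD, n = 3). With any single library left out, adjusted exact permutation p-values of the 4 separated pairs ran from 0.0391 to 0.0781, and all 4 stayed under 0.05 only without ALAS12-KO replicate 1. With a library left out, the exact permutation test cannot give an unadjusted p under 0.03125. All of the 4 pairs but miR-429-3p over miR-200c-3p were at that limit each time, so their loss of the call does not show weaker ratios.

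The 5p arms were close to the limit of detection. mmu-miR-141-5p had 2, 2, 16 and 12 reads in ALAS12-KO replicates 1 to 4, against 12, 10 and 3 reads in WT replicates 1 to 3. Its log2 fold change of 0.08 ± 0.54 was negative under library totals (−0.023) and under upper-quartile factors (−0.012). mmu-miR-200b-5p had 0, 3, 3 and 0 reads in ALAS12-KO, against 5, 3 and 1 in WT. mmu-miR-200a-5p had 0, 0, 0 and 1 reads in ALAS12-KO, against 0, 4 and 1 in WT, and mmu-miR-200c-5p had 0, 0, 3 and 0 in ALAS12-KO, against 2, 0 and 0 in WT. A count of 0 allows up to 3 reads, which is 0.137 to 0.389 CPM per library, and this limit covers counting error only. miR-429-5p, annotated on the Mir429 hairpin and not among the 9, is listed at 0 in all 7 libraries.

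As a share of both arms, the 5p arm made up 2.26% ± 1.53 of Mir141 reads in ALAS12-KO (SD, n = 4) and 2.22% ± 1.14 in WT (SD, n = 3). Pooled over the 7 libraries it made up 0.0918% of 6539 Mir200a reads, 0.749% of 2002 Mir200b reads, 0.906% of 552 Mir200c reads and 2.46% of 2314 Mir141 reads. The minor arm had a median share of 2.42% over the 212 hairpins with at least 1 CPM in both arms together, and was under 1% in 35.8% of them. The Mir200c share rests on 5 reads in 2 libraries. The mean of its share over libraries was 0.675%, and it was 0.376% without WT replicate 1 and 0.412% without ALAS12-KO replicate 3. With each library left out in turn, the mean share ran from 0.0453% to 0.0772% for Mir200a, from 0.523% to 0.913% for Mir200b, from 0.376% to 0.787% for Mir200c and from 2.00% to 2.48% for Mir141. Genotypes overlapped in the arm share of all 4 hairpins.

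Other epithelial miRNAs and miRNAs of the same regulatory circuit were read from lists chosen by known role. Of 7 epithelial miRNAs outside the family all were tested, and 3 had a negative and 4 a positive log2 fold change. Their median was 0.63 against 0.06 over all miRNAs. The edgeR adjusted threshold was passed by 0 of the 7 and by 0.0% of all tested miRNAs. miR-203-3p, a miRNA of skin and other epithelia, had 1970 ± 104 CPM in ALAS12-KO (SD, n = 4) and 1462 ± 43.5 CPM in WT (SD, n = 3). miR-31-5p had 570 ± 104 CPM in ALAS12-KO and 691 ± 67.2 CPM in WT, with overlapping groups. miR-182-5p had 68.6 ± 20.7 CPM in ALAS12-KO and 49.4 ± 2.97 CPM in WT, and miR-96-5p of the same cluster 49.3 ± 11.7 CPM in ALAS12-KO and 32.2 ± 5.20 CPM in WT. The groups overlapped for miR-182-5p, and for miR-203-3p and miR-96-5p every ALAS12-KO library lay above every WT library, as for 5.33% of all tested miRNAs. miR-375-3p and miR-205-5p were rare, at 4 to 36 and 4 to 27 reads per library.

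Among 8 miRNAs outside the family that restrain the epithelial-to-mesenchymal transition, 4 of them shared with the epithelial list, 7 were tested. Of these, 5 had a positive and 2 a negative log2 fold change, and 0 passed the adjusted threshold in edgeR, against 0.0% of all tested miRNAs. The median was 0.63, here and in the epithelial list the value of miR-203-3p, which both lists share. miR-34a-5p, a p53 target that represses Snai1, had 2269 ± 95.1 CPM in ALAS12-KO (SD, n = 4) and 1211 ± 232 CPM in WT (SD, n = 3). miR-30a-5p, which also represses Snai1, had 11210 ± 383 CPM in ALAS12-KO and 9557 ± 33.9 CPM in WT. For both, every ALAS12-KO library lay above every WT library. The same held for 4 of the 7 tested in this list, these included, and for 5.33% of all tested miRNAs. The reverse held for 0 of the 7 and for 15.3% of all tested miRNAs. Of 8 miRNAs that promote the transition, 1 of them shared with the leukocyte list, 5 were positive and 3 negative, with a median of 0.03. Of the 8, 0 passed, against 0.0% of all tested miRNAs. miR-21a-5p led them with 59318 ± 15569 CPM in ALAS12-KO and 38687 ± 3228 CPM in WT. Its lowest ALAS12-KO value, 42056 CPM, lay just above its highest WT value, 41968 CPM. In this list 1 of 8 had every ALAS12-KO library above every WT library, against 5.33% of all tested miRNAs. The reverse held for 1 of 8, near the 15.3% of all tested miRNAs. miR-103-3p, which lowers miR-200 by repressing Dicer1, had 2049 ± 324 CPM in ALAS12-KO and 2297 ± 96.9 CPM in WT, and miR-107-3p had 611 ± 95.8 CPM in ALAS12-KO and 661 ± 65.1 CPM in WT. The groups overlapped for both. Their TMM log2 fold changes, 0.003 and 0.06, were positive although their CPM means, on library totals, were lower in ALAS12-KO. miR-221-3p had 565 ± 201 CPM in ALAS12-KO and 474 ± 37.3 CPM in WT, also with overlap.

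Markers of the other liver cells moved in part with the chromosome 4 cluster. Mesenchymal miRNAs summed to 1567 to 5735 CPM in ALAS12-KO and 4172 to 6981 CPM in WT, with 6 of 7 members negative and a median of −0.48. The endothelial miR-126a arms summed to 10959 to 36485 CPM in ALAS12-KO and 35562 to 52472 CPM in WT, with 2 of 2 negative and a median of −0.56. Leukocyte miRNAs summed to 2999 to 9965 CPM in ALAS12-KO and 8167 to 10976 CPM in WT, with 7 of 7 negative and a median of −0.36. Those 3 sums overlapped between the genotypes. Red cell miRNAs summed to 9.11 to 20.3 CPM in ALAS12-KO and 20.5 to 27.2 CPM in WT, with 4 of 4 negative, a median of −0.51 and no overlap. By member, every ALAS12-KO library lay below every WT library for 2 of 7 mesenchymal and 1 of 2 endothelial miRNAs. The same held for 3 of 7 leukocyte and 2 of 4 red cell miRNAs, against 15.3% of all tested miRNAs. The reverse held for 0 members of these lists and for 5.33% of all tested miRNAs. In all 4 lists 0 members passed the edgeR adjusted threshold, as did 0.0% of all tested miRNAs, so this does not set the lists apart. Of their members 0 were at 0 in every library. Hepatocyte miRNAs summed to 606750 to 693310 CPM in ALAS12-KO and 633860 to 661950 CPM in WT, with 7 of 7 positive and a median of 0.34. Signs and medians are of TMM log2 fold changes, while CPM uses library totals. miR-122-5p was positive by the fit, at 0.20, while its means were 576740 CPM in ALAS12-KO and 578600 CPM in WT.

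Among the most abundant of these markers, miR-143-3p had 2950 ± 1364 CPM in ALAS12-KO (SD, n = 4) and 4459 ± 1133 CPM in WT (SD, n = 3). miR-126a-3p had 17110 ± 6949 CPM in ALAS12-KO and 28718 ± 6192 CPM in WT, and miR-142a-3p 3474 ± 1530 CPM in ALAS12-KO and 4256 ± 580 CPM in WT. The groups overlapped for miR-143-3p and miR-142a-3p. For miR-126a-3p they did not, with 23896 CPM the highest ALAS12-KO value and 24304 CPM the lowest WT value. The part of these markers in the miR-200 values was not tested. Without ALAS12-KO replicate 1, the lowest library of all 4 lists, the endothelial sum in ALAS12-KO averaged 30537 ± 5553 CPM and the leukocyte sum 8329 ± 1723 CPM (SD, n = 3). The miR-200b/miR-200a/miR-429 sum without it lay at 50.3 to 73.4 CPM and still below every WT library. As log2 difference from the mean of WT, the mesenchymal sum was −1.84, −0.67, 0.03 and −0.44 in ALAS12-KO replicates 1 to 4. In the same order the endothelial sum was −1.92, −0.70, −0.18 and −0.48, and the leukocyte sum −1.64, −0.52, 0.09 and −0.14. The red cell sum was −1.39, −0.80, −0.62 and −0.23. The miR-200b/miR-200a/miR-429 sum was −2.17, −1.20, −1.02 and −1.57.

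**Figure D4:**
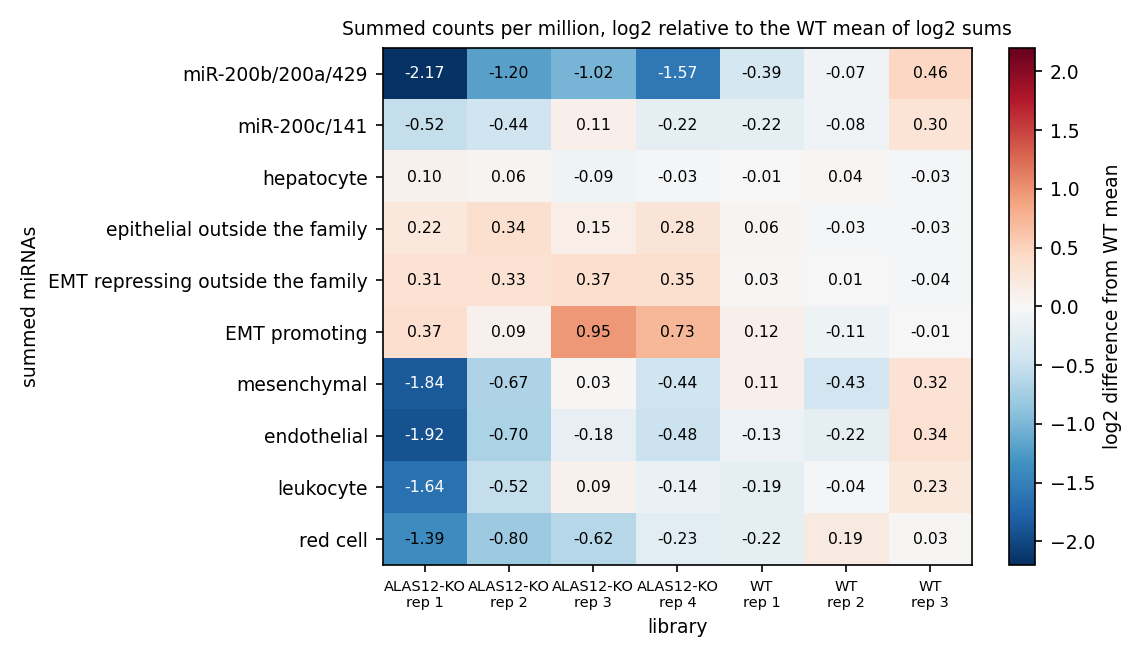
Summed CPM of each cluster and list, as log2 difference from the mean of the WT libraries, with ALAS12-KO replicates 1 to 4 left of WT replicates 1 to 3. The miR-200b/miR-200a/miR-429 row is at −2.17 to −1.02 in ALAS12-KO, while the mesenchymal, endothelial and leukocyte rows reach −1.84, −1.92 and −1.64 in ALAS12-KO replicate 1 and lie nearer to 0 in replicate 3. The red cell row is below 0 in every ALAS12-KO library, at −1.39, −0.80, −0.62 and −0.23.

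The miRNAs whose course over the 7 libraries was most like that of each cluster were sought among 388 tested miRNAs outside the family with a mean of at least 1 CPM. Likeness was the root mean square difference of log2 levels, each centred on its own mean, and it is a description. Nearest to miR-200b/miR-200a/miR-429 was miR-150-5p, a lymphocyte miRNA, at 0.31. It had 27.7 ± 11.4 CPM in ALAS12-KO (SD, n = 4) and 64.6 ± 22.0 CPM in WT (SD, n = 3). miR-145a-5p and miR-338-3p, both at 0.39, miR-497a-3p at 0.40, and miR-497a-5p and miR-126a-3p, both at 0.41, followed. The median of the 388 was 0.83. The chromosome 4 sum itself had a root mean square of 0.84 around its mean, the value that a miRNA without variation would score. The 3p arms of that cluster lay 0.13 to 0.18 from each other, compared pair by pair and not with the sum. Nearest to miR-200c/miR-141 were miR-340-3p at 0.07, miR-151-5p at 0.12, miR-331-3p and let-7i-5p both at 0.14, miR-532-5p at 0.16 and miR-24-3p at 0.17, with a median of 0.41. The miR-200c/miR-141 cluster itself varied little, with a root mean square of 0.27 around its mean, so likeness to it mostly picks miRNAs that vary little too.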

How the data were processed

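The deposited files hold whole-number read counts per mature miRNA, 1 table per library, with no normalisation, as the values show. Cutadapt, limma, mm10 and hg38 are named in the submitters' processing notes without role or version, and the aligner, the counter and the annotation are not given in any source used here. The summary entries, 5 per library, were dropped. Reads counted in no miRNA were 50.9% to 73.7% of all counted reads. Levels are CPM, the deposited counts scaled to 1000000 summed miRNA reads, so a change shared by all miRNAs would not show, and the control RNAs added before ligation were not used here.

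Log2 fold changes came from edgeR 4.0.16 in R 4.3.3 (quasi-likelihood, robust, TMM, filterByExpr with a minimum count of 10, genotype only) fitted to all miRNAs, with Benjamini-Hochberg adjustment at 0.05. DESeq2 1.42.0, limma-voom (limma 3.58.1), other scalings, other filters, the replicate number as a block, and single libraries left out were the alternatives. The fits were tested on simulated counts. Libraries of 1 group differed beyond sampling noise (97.4 to 1104 chi-square units for each degree of freedom), so none was counted as a duplicate. Clusters and neighbouring members were compared with exact sign-flip permutation tests over 128 sign patterns.

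Members, lists and tests were chosen with earlier results of these data known. All 9 members are named, with up to 4 of the most abundant miRNAs of each list and the 6 nearest to each cluster; miR-375-3p, miR-205-5p, as rare members, are named beyond that rule after their values were seen. Of the hepatocyte list, miR-122-5p apart, and of the red cell list only sums and counts are given. Sequences are from RefSeq (GRCm38.p6), where 9 of the 9 members matched, and overlaps from GENCODE M21.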

Additional observations from a re-analysis of the deposited data

Results flagged for a closer look

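Of 23 measures of the 4 ALAS12-KO libraries, 1 set a single library apart, and about 1 in 20 would by chance. For the share of miR-200b-3p in the reads of its cluster, ALAS12-KO replicate 3 stood at 23.2% and the lowest ALAS12-KO library at 18.8%. Its distance to the next library was 0.880 of the whole range, more than Dixon's critical ratio at this group size.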

How the results depend on the processing

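edgeR called 0 miRNAs and 0 family members. It called 2 miRNAs with library totals and 13 with no filter, and DESeq2 called 21. Of the family, 3 of 9 members were called with no filter, where 1302 miRNAs were tested, and 3 of 6 with DESeq2, where 450 were. With each library left out in turn, 0 to 1 miRNAs and 0 members were called. The log2 fold changes of miR-200a-3p, miR-200b-3p and miR-429-3p stayed negative under all alternatives run. That of miR-200c-3p turned positive without ALAS12-KO replicate 2 (0.027) or WT replicate 3 (0.10). That of miR-141-5p turned negative with library totals (−0.023), upper-quartile factors (−0.012), limma-voom (−0.13) and the replicate block (−0.38), and without WT replicate 2 (−0.028) or WT replicate 3 (−0.065). Over the libraries left out in turn, miR-200c-3p ran from −0.32 to 0.10. miR-141-5p ran from −0.065 to 0.39 over 5 of the 7 such fits, since it did not pass the filter without ALAS12-KO replicate 3 or 4. The causes were not tested, and miR-141-5p had 2 to 16 reads per library.

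Same-numbered libraries did not deviate together (correlations of deviations −0.03, −0.43 and −0.02 for replicates 1 to 3), so the numbers were not taken to pair samples. With the replicate block edgeR called 0 miRNAs, and the log2 difference of the miR-200b/miR-200a/miR-429 sum was −1.46, against −1.47 without it. The exact test of the cluster ratio lost its call with the median of the 3p members (log2 ratio 0.65, p = 0.0938). Leaving out each library, the cluster log2 ratio ran from 1.44 to 1.74, and its difference between genotypes from −1.37 to −1.08. The log2 difference of the sums then ran from −1.65 to −1.20 for miR-200b/miR-200a/miR-429 and from −0.41 to −0.10 for miR-200c/miR-141. The log2 ratios of neighbouring members ran from 1.20 to 1.51 (miR-200a-3p over miR-141-3p), 0.22 to 0.54 (miR-141-3p over miR-200b-3p), 0.75 to 0.83 (miR-200b-3p over miR-429-3p), 0.78 to 1.10 (miR-429-3p over miR-200c-3p) and 3.40 to 3.71 (miR-200c-3p over miR-141-5p). Without ALAS12-KO replicate 1 the 4 separated pairs had an adjusted exact permutation p of 0.0391. Without any other library it was 0.0781 for miR-429-3p over miR-200c-3p and 0.0521 for the other 3, so all 4 lost the call. Those other 3 were at the smallest unadjusted p that the exact permutation test can give with a library left out, 0.03125. Their loss of the call therefore does not show weaker ratios.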
